A study of Mus musculus with 2 samples.

Results

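A group of 10 genes that make, break down or sense oxysterols, or that answer to the oxysterol receptors LXR, was examined in dendritic cells grown from mouse bone marrow. The list was drawn up with the results of these 2 arrays in view. It holds the enzymes Ch25h, Cyp7b1, Cyp27a1 and Hsd3b7, the chemotactic receptor Gpr183, the nuclear receptors Nr1h3 (LXR alpha) and Nr1h2 (LXR beta), and the LXR targets Abca1, Abcg1 and Mylip. A member was measured where a probe set carried that symbol and no other. This gave 10 probe sets for 9 of the 10 genes, out of 22180 genes named in this way on the array. Nr1h2 was not analysed here.

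The tested culture was grown with medium conditioned by topotecan-treated E0771 cells, and the other was the control culture. E0771 is a mouse mammary tumour line, and topotecan is an inhibitor of topoisomerase I. Both cultures were labelled as bone marrow-derived dendritic cells, and both sample titles begin with GMDC. The labels used here give no mouse strain, age, dose, culture time or medium of the control, so tumour-conditioned medium as such and the topotecan treatment behind it cannot be told apart. Each culture was measured on 1 array. No difference below therefore has a replicate error or a test.

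Oxysterols are oxidised forms of cholesterol that act as signals. CH25H adds a hydroxyl group to carbon 25 of cholesterol, and CYP27A1, a mitochondrial enzyme, adds one to the end of the side chain. CYP7B1 adds a further hydroxyl group to such products, which yields the main ligand of GPR183 (also called EBI2), and HSD3B7 converts that ligand onward to bile acid precursors. Dendritic cells and B cells use GPR183 to position themselves in spleen and lymph nodes. Inside the cell, oxysterols activate LXR, which pairs with RXR on DNA and raises cholesterol export through ABCA1 and ABCG1 and, through MYLIP (IDOL), the breakdown of the LDL receptor. 25-Hydroxycholesterol also holds back SREBP2, the activator of cholesterol synthesis genes. In macrophages and dendritic cells Ch25h is known as an interferon-inducible gene.

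The promoters of 3 members are shown because these genes carry the contrast described below: Ch25h, which had the largest difference of the 9, and Abca1 and Mylip, a pair of LXR targets of which one was level and the other higher. Each sequence is the 250 bases before the transcription start, from RefSeq on GRCm38.p6, 5′ to 3′ on the strand of the gene. Capitals mark matches to the motifs that are spelled out beneath.
Ch25h, chr19:34475149-34475398, minus strand: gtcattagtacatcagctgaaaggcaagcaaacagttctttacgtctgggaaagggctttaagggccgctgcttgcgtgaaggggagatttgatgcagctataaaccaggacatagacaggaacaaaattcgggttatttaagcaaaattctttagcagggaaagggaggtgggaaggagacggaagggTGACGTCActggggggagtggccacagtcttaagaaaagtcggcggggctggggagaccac
Abca1, chr4:53159896-53160145, minus strand: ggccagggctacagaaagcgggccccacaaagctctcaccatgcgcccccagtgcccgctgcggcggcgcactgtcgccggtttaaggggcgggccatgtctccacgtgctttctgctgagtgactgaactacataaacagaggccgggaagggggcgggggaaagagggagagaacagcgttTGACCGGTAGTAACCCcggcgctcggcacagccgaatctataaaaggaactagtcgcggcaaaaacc
Mylip, chr13:45389492-45389741, plus strand: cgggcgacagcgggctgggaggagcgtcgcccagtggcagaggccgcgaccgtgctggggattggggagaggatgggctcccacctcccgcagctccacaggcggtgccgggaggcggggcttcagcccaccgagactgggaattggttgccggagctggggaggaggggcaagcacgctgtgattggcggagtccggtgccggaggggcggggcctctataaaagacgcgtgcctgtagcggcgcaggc
Promoters in the RefSeq table covered 8 of the 10 genes (9 promoters, with 2 for Nr1h3), each of 250 bases before and 50 bases after a start. Cyp7b1 and Abcg1 were not matched.

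The capitals in the Ch25h promoter are a cyclic AMP response element, TGACGTCA, the element of CREB and ATF factors. It reads the same on both strands, lies 61 to 54 bases before the start, and was present in 2.03% of the 27025 genes with a promoter in the table. The capitals in the Abca1 promoter are a DR4 element, which is a pair of nuclear receptor binding hexamers 4 bases apart (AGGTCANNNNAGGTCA). The Abca1 match lies 67 to 52 bases before the start on the opposite strand and needs up to 2 mismatches in a hexamer and 3 in all. At that tolerance 21.1% of genes had a match. The DR4 element of the human ABCA1 promoter is a known site of LXR action. With at most 1 mismatch in each hexamer, DR4 was found in 2.02% of genes and in none of the 8 members. The interferon-stimulated response element, searched as GAAANNGAAA on both strands, was present in 3.99% of genes and in none of the 8, Ch25h included. The single hexamer AGGTCA, which is also contained in an exact DR4, was present in 18.1% of genes and in none of the 8. The NF-kB element was present in 9.55% of genes and, among the 8, in Hsd3b7. Mylip had no match to any of these motifs. The CREB/ATF element and the looser DR4 were searched for after these sequences and the expression values had been seen.

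The 9 measured genes did not differ in one direction. Ch25h stood far above its control value, Cyp27a1, Nr1h3 and Mylip were moderately higher with conditioned medium, Gpr183 was lower, and Cyp7b1, Hsd3b7, Abca1 and Abcg1 were close to level. Values are log2 intensities of a probe set, differences are conditioned medium minus control, and genes were counted where they were at least 2-fold apart. By that rule 4 of the 9 were higher, 1 was lower and 4 were less than 2-fold apart. Among all 13712 genes whose higher value reached 4.10, the median of all values on both arrays, the shares past 2-fold were 8.63% upward and 6.84% downward. All 9 members had both values at or above 4.10. Since the members were picked from this comparison, nothing is read from these counts. The same holds for the rank of Ch25h and for the comparisons of single members with genes of like level below. The median difference of the 9 was -0.07, and that of all 13712 kept genes was also -0.07. The spread between probe sets of the same gene is the only error the arrays hold. It had a pooled SD of 0.46 on the log2 scale (787 degrees of freedom) and covers neither cultures nor animals.

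**Figure D1:**
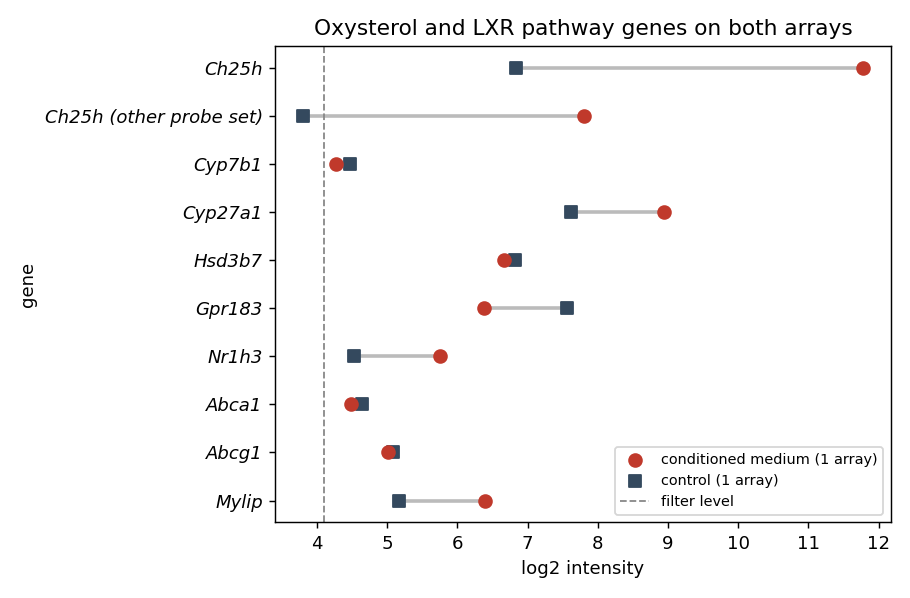
Log2 intensity of the 10 probe sets of the 9 measured genes (one per row), with conditioned medium as circles and control as squares, 1 array each, and the filter level of 4.10 as a dashed line. Ch25h has the widest gap on both of its probe sets, Cyp27a1, Nr1h3 and Mylip lie to the right with conditioned medium, Gpr183 lies to the left, and the symbols of Cyp7b1, Hsd3b7, Abca1 and Abcg1 nearly touch.

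Among the members that make oxysterols, Ch25h, the cholesterol 25-hydroxylase, had a log2 intensity of 11.77 with conditioned medium and 6.83 in the control culture. The difference of 4.94, or 30.7-fold, was the 31st highest of the 13712 kept genes. With conditioned medium the probe set stood above 99.4% of all probe sets on its array, against 87.3% on the control array. The highest value of any probe set was 13.50 with conditioned medium and 13.42 in control. Of the 420 kept genes whose mean level lay within 0.5 of that of Ch25h, 1 had a larger difference. A second probe set named Ch25h gave 7.80 with conditioned medium and 3.81 in control, a difference of 3.99. Its control value was under 4.10, and measured against that level the difference was 3.70.

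The second Ch25h probe set stood, by its identifier, among genes of the other strand. Ch25h lies on the minus strand in RefSeq. In the order of probe set identifiers, the 20 named probe sets on either side of each were examined. Around the first one (17364111), 36 probe sets were for genes of chromosome 19 with a known strand. Of these 36, 34 were for minus-strand genes and 2 for plus-strand genes. Around the second one (17358810) there were 34 such probe sets, all for plus-strand genes, and its named neighbours were Fas and Ifit2. The annotation gives no strand for either probe set, and which RNA the second one detects was not tested. Both were higher with conditioned medium.

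Cyp27a1, the sterol 27-hydroxylase, had 8.94 with conditioned medium and 7.61 in control, a difference of 1.33 or 2.51-fold. Of 801 kept genes within 0.5 of its mean level, 96 had a larger difference. Of these 2 members, Ch25h was thus higher by 4.94 and Cyp27a1 by 1.33 on the log2 scale. Cyp46a1, the cholesterol 24-hydroxylase, which also acts on cholesterol directly, had 4.48 with conditioned medium and 4.81 in control, a difference of -0.32.

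The enzymes further along the pathway were nearly level. Cyp7b1, the oxysterol 7-alpha-hydroxylase, had 4.28 with conditioned medium and 4.48 in control, a difference of -0.20. Both values were close to the filter level and stood above only 54.1% and 58.3% of probe sets. Hsd3b7, which acts on the products of CYP7B1, had 6.66 with conditioned medium and 6.82 in control, a difference of -0.16 at a level well above the filter. Both differences were smaller than the pooled SD between probe sets.

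Gpr183, the receptor for the oxysterol that CH25H and CYP7B1 make together, was the one member at least 2-fold lower. Its log2 intensity was 6.38 with conditioned medium and 7.56 in control, a difference of -1.18, which is 2.27-fold lower. Among the 1649 kept genes within 0.5 of its mean level, 116 had a lower value of the difference, and 11.0% were at least 2-fold lower. The synthetic enzyme Ch25h and the receptor Gpr183 therefore lay on opposite sides of their controls. In RNA from a whole culture, fewer cells of a type and less RNA per cell cannot be told apart, and this holds for Gpr183 and for each difference given here.

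Nr1h3, which encodes LXR alpha, had 5.75 with conditioned medium and 4.53 in control, a difference of 1.22 or 2.34-fold. Of the 3890 kept genes within 0.5 of its mean level, 197 had a larger difference and 7.38% were at least 2-fold higher. The control value stood above 59.4% of probe sets, against 78.2% for the value with conditioned medium.

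The LXR targets were split. Mylip, which encodes an E3 ubiquitin ligase for the LDL receptor, had 6.39 with conditioned medium and 5.17 in control, a difference of 1.23 or 2.34-fold. Of the 2881 kept genes near its level, 207 had a larger difference. Abca1, the transporter that loads cholesterol onto apolipoprotein A-I, had 4.49 with conditioned medium and 4.65 in control, a difference of -0.15. Abcg1, the transporter that passes cholesterol to HDL, had 5.02 with conditioned medium and 5.09 in control, a difference of -0.07. Abca1 was dim on both arrays, above 58.6% and 61.6% of probe sets, and Abcg1 stood somewhat higher, above 68.2% and 69.6%. Both were within the pooled SD between probe sets of 0. Brightness differs between probe sets, so these values do not rank the genes against each other.

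**Figure D2:**
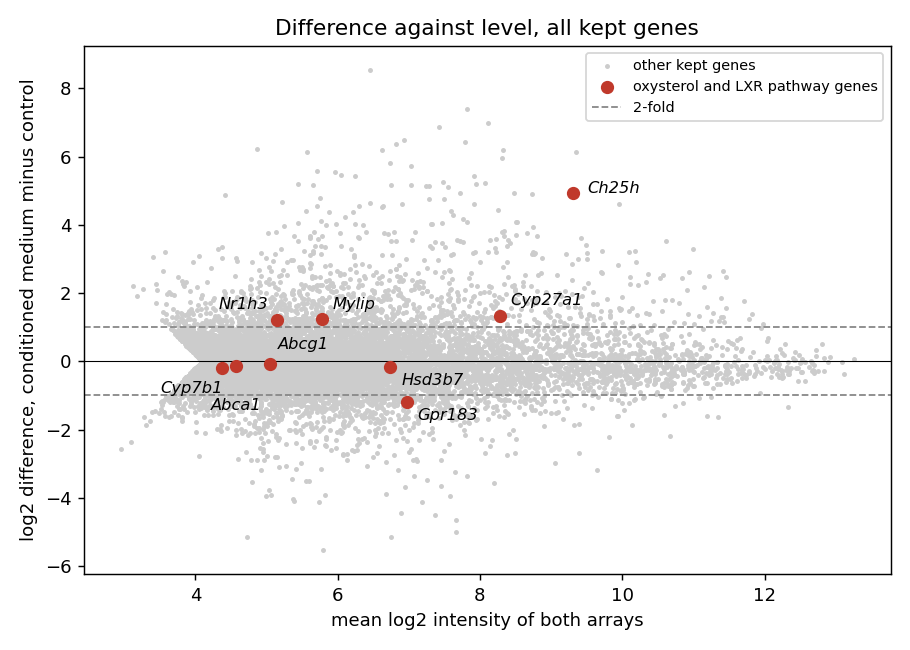
Log2 difference (conditioned medium minus control) against the mean log2 intensity of both arrays for 13712 kept genes, with the 9 measured oxysterol and LXR pathway genes as large red points and 2-fold as dashed lines. Ch25h (4.94) stands near the top of the cloud at its level, Cyp27a1, Mylip and Nr1h3 lie just above the upper line, Gpr183 lies just below the lower line, and the other 4 lie close to 0.

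In a list of other LXR targets, the kept genes were within 2-fold of control or lower. That list held 17 kept genes, of which 0 were higher by 2-fold or more, 4 were lower and 13 were within 2-fold. Its median difference was -0.25, against -0.07 for all kept genes. Over all kept genes 8.63% were 2-fold higher and 6.84% lower. How far LXR sets the values of the listed genes was not tested. The 4 lower genes were Cd5l, a secreted macrophage survival protein (6.35 with conditioned medium and 8.31 in control, -1.96), the desaturases of polyunsaturated fatty acid synthesis Fads2 (-1.91) and Fads1 (-1.61), and Lpl, the lipoprotein lipase gene (-1.60). Tgm2, a transglutaminase gene, had the highest difference of the list, 0.67. Apoe, the apolipoprotein that accepts exported cholesterol, was level (6.77 with conditioned medium and 6.82 in control), as was Srebf1, the LXR-driven regulator of fatty acid synthesis (4.14 with conditioned medium and 4.36 in control). Mylip was thus 2-fold higher while none of these 17 was, on the same arrays.

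The partners of LXR differed little. Among 10 kept genes for RXR, coactivators and corepressor subunits, 0 were 2-fold higher, 1 was 2-fold lower and 9 were within 2-fold. Their median was -0.04. Over all kept genes 8.63% were 2-fold higher and 6.84% lower. Gps2, a subunit of the corepressor complex, was 2.09-fold lower (6.75 with conditioned medium and 7.82 in control), and Tbl1x, another subunit, had the highest difference, 0.80. Rxra and Rxrb, the obligate partners of LXR, had differences of 0.19 and -0.13. The higher Nr1h3 value therefore had no counterpart of that size among these 10 genes.

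Other enzymes of oxysterol and bile acid metabolism gave no second case like Ch25h. Of 15 measured genes 9 were kept, and none of the 9 was 2-fold higher, 1 was 2-fold lower and 8 were within 2-fold. The median was -0.0027. Over all kept genes 8.63% were 2-fold higher and 6.84% lower. The lower gene of the 9 was Hsd17b4, a peroxisomal enzyme that shortens fatty acid and bile acid side chains (6.76 with conditioned medium and 8.04 in control, -1.28). The highest was Hsd11b1 (0.53), which acts on glucocorticoids and on 7-ketocholesterol. The other 6, Cyp7a1 among them, had both values under 4.10.

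Proteins that bind or carry sterols included genes on both sides. The 15 kept genes held 2 that were 2-fold higher, 2 that were 2-fold lower and 11 within 2-fold, and their median was -0.22. Over all kept genes 8.63% were 2-fold higher and 6.84% lower, and nothing is read from list counts this small. Stard5 (7.17 with conditioned medium and 5.91 in control, 2.39-fold) and Stard3, a late endosomal cholesterol carrier (7.24 with conditioned medium and 6.22 in control, 2.03-fold), were higher. Osbpl8, an oxysterol-binding protein relative of the endoplasmic reticulum, was 4.92-fold lower (7.02 with conditioned medium and 9.31 in control), and Stard4, a soluble sterol carrier and SREBP2 target, was 4.20-fold lower (4.38 with conditioned medium and 6.44 in control). In the small group of cholesterol ester and lysosomal cholesterol genes, 0 of 5 passed 2-fold in either direction. Lipa, the lysosomal acid lipase gene, was at 0.89 and Npc1, which moves cholesterol out of lysosomes, at -0.94.

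25-Hydroxycholesterol is known to hold back SREBP2. In a list of SREBP2 targets and regulators, most genes were lower on the array on which Ch25h was higher. Over all kept genes 6.84% were 2-fold lower and 8.63% higher. Among the 17 kept genes of the SREBP2 list 10 were lower by 2-fold or more, 0 were higher and 7 were within 2-fold, and the median was -1.48. The lowest was Sqle, the gene of squalene epoxidase (5.39 with conditioned medium and 8.76 in control, -3.36). The highest was the regulator Insig2, which retains SREBP2 in the endoplasmic reticulum (0.32). Interferon-stimulated genes, the class to which Ch25h belongs, were higher by at least 2-fold in 16 of 17 kept cases, against 8.63% of all kept genes. Their median was 2.27. Rsad2, an antiviral enzyme, was highest (5.24) and Oas3 lowest (0.58). The difference of Ch25h, 4.94, lay below that of Rsad2 and above those of the other 16 genes. With 2 arrays, any gene that differs moves with any other, so whether these groups are linked to Ch25h was not tested.

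**Figure D3:**
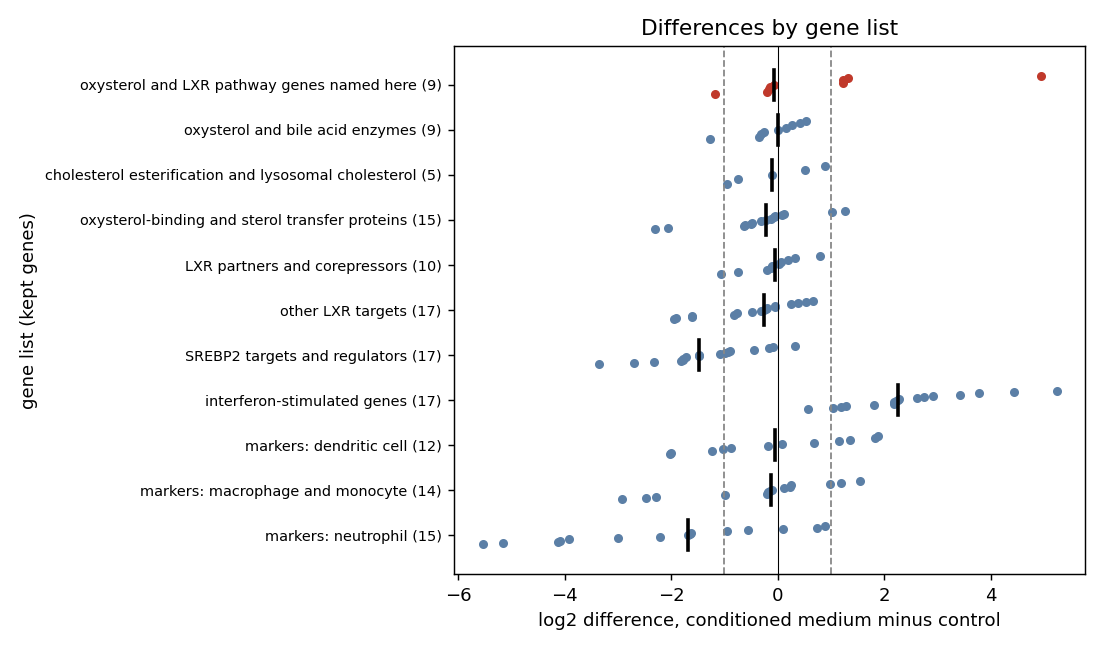
Log2 difference (conditioned medium minus control) of every kept gene in the 9 measured oxysterol and LXR pathway genes and in 10 gene lists, with the number of kept genes in brackets, medians as black bars and 2-fold as dashed lines. The SREBP2 list (median -1.48) and the neutrophil markers (-1.69) lie to the left, and interferon-stimulated genes (2.27) lie to the right. The medians of LXR partners and other LXR targets are -0.04 and -0.25.

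Markers of several myeloid cell types had signal in both cultures, and some moved with these differences. Itgax, the gene of the dendritic cell surface marker CD11c, had 7.15 with conditioned medium and 8.18 in control. Neutrophil markers were at least 2-fold lower in 10 of 15 cases and higher in 0, against 6.84% and 8.63% of all kept genes. Those shares also stand beside the marker counts that follow. The summed linear intensity of the neutrophil markers was 3466 with conditioned medium and 11572 in control. S100a8 and S100a9 were the brightest of the 15 on both arrays. With conditioned medium 4 of the 15 were under 4.10, against 0 in control. Camp, a neutrophil granule gene, was lowest (-5.54) and Csf3r highest (0.89). The neutrophil markers were thus not uniform. The 5 within 2-fold were Cxcr2 (-0.95), Mmp8 (-0.56), Lcn2 (0.10), Ly6g (0.74) and Csf3r. Of 12 kept dendritic cell markers, 4 were higher and 4 lower, from Batf3 (-2.03) to the class II gene H2-Aa (1.88). Summed intensities over the 13 measured were 7565 with conditioned medium and 4576 in control. Such sums weigh bright genes most. The brightest of the 13 with conditioned medium were the class II genes H2-Ab1 (11.3), H2-Aa (10.9) and H2-Eb1 (10.9). These genes and Irf4 were the 4 higher markers, and Batf3, Clec10a, Flt3 and Itgax were the 4 lower. Flt3 lay under 4.10 with conditioned medium. Of 14 macrophage and monocyte markers, 2 were higher and 3 lower, from Csf1r (-2.93) to Vcam1 (1.54), with sums of 28171 with conditioned medium and 24148 in control. Of 7 kept lymphocyte markers, 1 was lower (Cd79b, -2.24) and 0 were higher, Cd3e being highest (0.55), with sums of 236 with conditioned medium and 362 in control over the 10 measured, of which 3 were under 4.10 on both arrays. Of 8 kept mammary tumour and stromal markers, 3 were higher and 0 lower, from Col3a1 (-0.68) to Dcn (4.01). The 3 higher were Krt19 (2.15), Cdh1 (3.79) and Dcn, and the other 5 kept were within 2-fold. Sums over the 14 measured were 3663 with conditioned medium and 3351 in control. The brightest, Col1a2, had 10.88 with conditioned medium and 11.51 in control. Of the 14, 6 were under 4.10 on both arrays, Epcam among them. The part of a shift in cell types in the values of Gpr183, Nr1h3 or Ch25h was not tested.

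The genes with values most like those of Ch25h on the 2 arrays, by Euclidean distance of the log2 intensities among kept genes, were Cfb (complement factor B, 11.18 with conditioned medium and 6.28 in control, distance 0.81), Cxcl10 (0.84), Il18bp (0.95), Hilpda (0.96) and Apol9a (1.07). Those nearest to Gpr183 were Ppp3ca, Vcpkmt, Nrp1, Btk and Smyd2, at distances of 0.051 to 0.061. The neighbours of Gpr183 were closer than those of Ch25h, and 1649 kept genes lay within 0.5 of its mean level, against 420 for Ch25h. Likeness over 2 arrays describes values only.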

How the data were processed

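The authors deposited log2 intensities, 1 value per probe set for each of 2 arrays. Per the submitters' processing notes they used Affymetrix Expression Console. No version, normalization method or genome build is given in the sources used here. The log2 scale is inferred from the range, -0.26 to 13.50. Medians were 4.09 with conditioned medium and 4.10 in control, so a change shared by most genes would not show. The number of arrays limits the precision.

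Genes were named from the platform annotation: 23521 of 41345 probe sets had 1 symbol, 1814 had several and 16010 had none. All 10 member probe sets kept the same symbol by gene identifier in RefSeq (GRCm38.p6). A gene was represented by its probe set with the highest mean and kept when its higher value reached 4.10, the median of all values. With 1 array per group, no test was made; genes were counted by a fixed size of 2-fold. The members, 12 gene lists (193 entries, 170 measured, 23 not analysed here), size rule and filter were chosen with earlier results of these data known. Named were all members, the highest and lowest kept gene of each list, and the 5 genes nearest to Ch25h and to Gpr183. Every kept gene past 2-fold was also named in 4 lists (other LXR targets, LXR partners, oxysterol and bile acid enzymes, sterol-binding proteins). Apoe, Srebf1, Rxra, Rxrb, Flt3, Itgax, Cyp46a1, Cyp7a1, H2-Ab1, H2-Eb1, Irf4 and Clec10a were added after their values were seen. The same holds for Cxcr2, Mmp8, Lcn2, Ly6g, S100a8, S100a9, Krt19, Cdh1, Col1a2 and Epcam. Alternatives were quantile normalization, lowess (fraction 0.3, 3 iterations), centring, the mean of probe sets, other filters, a floor at 4.10 and other fold thresholds. The counting was tested on simulated data. Python 3.11.15, numpy 2.4.6, pandas 2.3.3, statsmodels 0.14.6 and matplotlib 3.10.9 were used.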

Additional observations from a re-analysis of the deposited data

Results flagged for a closer look

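The second probe set named Ch25h carried signal with conditioned medium above that of the control array. It enters no count except under the mean of probe sets, where it is averaged with the first. The log2 intensity of the second probe set was 7.80 with conditioned medium and 3.81 in control, a difference of 3.99. The named probe sets around it in identifier order were for plus-strand genes in 34 of 34 cases with a known strand, whereas Ch25h is on the minus strand. What it detects was not tested.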

How the results depend on the processing

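Among the 9 members, 4 at least 2-fold higher and 1 lower were counted under quantile normalization, lowess, centring, the mean of probe sets, all 3 other filters, the floor at 4.10 and a 1.5-fold threshold. At 2-fold, the share of all genes that were higher ran from 5.79% without a filter to 13.6% with the filter at the 75th percentile. The share that were lower ran from 4.94% to 10.2% over the same settings. The filter at the 75th percentile kept 6 members. At 3-fold, 1 member (Ch25h) was higher and 0 were lower. Among all 13712 kept genes 568 (4.14%) were higher and 290 (2.11%) lower at 3-fold. At 1.5-fold all kept genes gave 2274 (16.6%) higher and 2458 (17.9%) lower. The count changes with the threshold by construction. Over quantile normalization, lowess, centring, the mean of probe sets and the floor, the difference of Ch25h ran from 4.47 (mean of probe sets) to 5.08, Cyp27a1 from 1.26 to 1.45, Nr1h3 from 1.22 to 1.25, Mylip from 1.21 to 1.28 and Gpr183 from -1.21 to -1.09. Abca1, Abcg1, Cyp7b1 and Hsd3b7 stayed between -0.20 and -0.04. The filter at the 75th percentile left few genes in 3 lists and moved their medians to -1.28 (oxysterol and bile acid enzymes), -2.24 (lymphocyte markers) and 0.87 (mammary tumour markers). The median of other LXR targets ran from -0.25 to -0.19, and that of SREBP2 genes from -1.60 to -1.28. No paired analysis was possible because each group holds 1 array. Signal near 4.10 limits what Abca1, Cyp7b1 and the control value of Nr1h3 can show.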
